A study of Mus musculus with 6 samples.

Results

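The interleukin genes and the genes for interleukin receptors were examined in mouse bone marrow-derived macrophages (BMMs) given rGDF11 or vehicle during RANKL stimulation. A gene was included when a probe set was paired by the platform annotation with exactly 1 symbol and that symbol was Il followed directly by a digit. This rule gave 76 genes of the 19938 genes represented by an unshared probe set, and each was represented by its brightest probe set over the 6 arrays. They comprised 36 ligands, 35 receptor chains, 4 soluble antagonists (*Il1rn*, *Il18bp*, *Il1f5* and *Il22ra2*) and *Il1bos*, a transcript antisense to *Il1b*. Shared chains that carry another name, such as *Csf2rb*, lie outside the rule and were treated as partners. The receptor genes *Il1r1*, *Il1rl1* and *Il2rg*, the last encoding the common gamma chain, were not among the 76 and have no value here.

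The study ran 3 arrays on BMMs cultured for 24 h with 50 ng/ml RANKL, 100 ng/ml M-CSF and 100 ng/ml rGDF11, and 3 on BMMs given the same RANKL and M-CSF with vehicle. RANKL is the cytokine that drives macrophages towards osteoclasts, M-CSF keeps macrophages alive and dividing, and rGDF11 is recombinant growth differentiation factor 11, a member of the TGF-β superfamily. Both groups therefore received RANKL, and no array showed cells without it. The cells were grown from tibial marrow of mice that per the methods were female C57BL animals. The labels give the mice as 9 weeks old, whereas the methods give a range of ages that ends at 9 weeks. The labels call the 3 arrays of a group biological replicates without saying whether each came from its own mouse.

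Interleukins are secreted proteins through which leukocytes instruct one another and neighbouring tissue. Most bind receptors built from a private chain and a shared chain, and the level of each chain sets which ligands a cell can read, while decoy receptors and binding proteins intercept a ligand without signalling. In bone, IL-1 is known as a promoter of osteoclast formation, whereas IL-4, IL-10, IL-12 and IL-18 are known to restrain it in culture.

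All values are log2 expression values made with RMA, a procedure that corrects background, equalizes arrays and summarizes probes, so that a difference of 1 is a factor of 2. Array medians over the 23410 tested probe sets lay between 6.11 and 6.18, and arrays correlated at 0.997 to 0.998 within a group and at 0.989 to 0.991 between groups. The 8 macrophage markers had mean values between 8.18 and 13.04, all above the median of the tested probe sets. Of these 8, 5 fell with rGDF11, beside 16.2% of all genes above the median, *Fcgr1* and *Cd14* among the 5, and the mean of the list was 10.84 to 10.92 on the rGDF11 arrays and 11.32 to 11.35 on the vehicle arrays. Of 48 measured markers of 8 other cell types, 9 rose and 2 fell, beside 7.31% and 8.64% of all tested probe sets. Of the 48, 27 lay in the range of olfactory receptor genes, a yardstick for dim probe sets whose 95th percentile was 5.34, and 2.97% of all genes in that range were called. In bulk cultures, a change in the share of cells that carry a transcript cannot be told apart from a change in transcript per cell.

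Compared with RANKL alone, rGDF11 changed 17 of the 76 genes at an adjusted p under 0.05 in limma, against 16.0% of all tested probe sets. Of the 17, 6 rose, where 7.31% of all tested probe sets did, and 11 fell, where 8.64% did. Receptor chains made up most of both directions: *Il17ra*, *Il21r*, *Il1r2*, *Il13ra1* and *Il4ra* rose, and *Il12rb2*, *Il18rap*, *Il10ra*, *Il6st*, *Il10rb* and *Il7r* fell. Among the ligands, *Il18*, *Il15*, *Il16* and *Il1f9* fell and *Il1b* rose, and of the antagonists *Il1rn* fell. At the methods' threshold, a fold change of 1.5 with an unadjusted p under 0.01, 4 genes rose and 6 fell, beside 2.06% and 2.96% of all tested probe sets. The values with rGDF11 and with vehicle did not overlap for 25 of the 76 genes, a share like the 32.9% of all tested probe sets. With 3 arrays a side, an exact two-sided permutation test of a single gene cannot go below 0.1. The calls therefore rest on limma's model, which combines each gene's own spread with a spread pooled over all probe sets. Under the methods' own test with Benjamini-Hochberg adjustment, which pools no spread, 13 of the 76 genes were called.

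**Figure D1:**
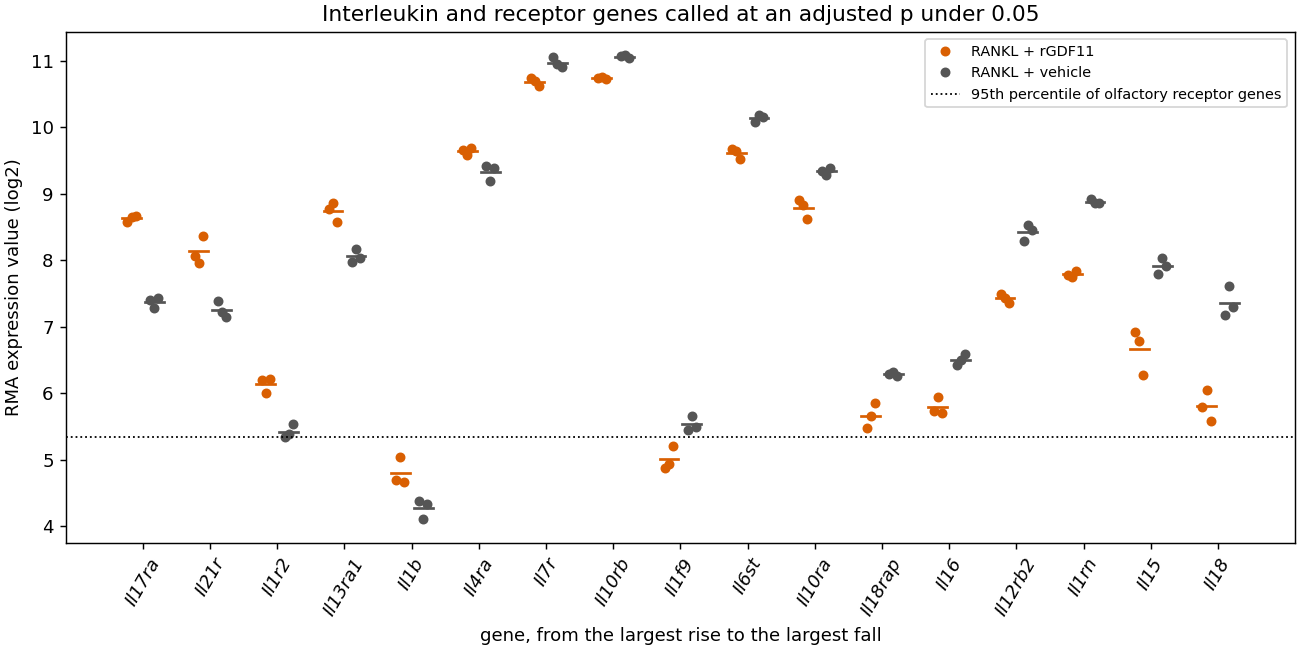
RMA values (log2) of the 17 genes called at an adjusted p under 0.05, ordered from the largest rise to the largest fall. Each point is 1 array (rGDF11 in orange, left; vehicle in grey, right), bars are group means, and the dotted line at 5.34 is the 95th percentile of olfactory receptor genes; within each gene the 3 rGDF11 points and the 3 vehicle points do not overlap, and *Il1b* lies below the line on all 6 arrays.

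The IL-18 system gave the largest fall. *Il18* encodes a cytokine that is made as an inactive precursor and induces interferon-γ in lymphocytes. Its values were 5.79, 6.05 and 5.58 on the rGDF11 arrays and 7.17, 7.62 and 7.29 on the vehicle arrays. The highest rGDF11 array stayed more than 1 unit below the lowest vehicle array, and the fall was 1.55 ± 0.15 (log2 difference ± SE, limma adjusted p = 0.000349), or 2.94-fold. *Il18rap*, the accessory chain that the IL-18 receptor needs to signal, had values of 5.47, 5.66 and 5.85 with rGDF11 and 6.28, 6.31 and 6.25 with vehicle. All 3 vehicle arrays were close together and above every rGDF11 array, with a fall of 0.62 ± 0.10 (adjusted p = 0.00384). The ligand-binding chain *Il18r1* lay within the olfactory receptor range at 4.11 with rGDF11 and 3.97 with vehicle (adjusted p = 0.435). *Il18bp*, which neutralizes secreted IL-18, averaged 6.78 ± 0.02 with rGDF11 and 7.02 ± 0.12 with vehicle (SD, n = 3 each), a difference of -0.24 that did not pass (adjusted p = 0.0784).

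In the IL-1 family, the receptor antagonist fell, and the decoy receptor and an agonist rose. *Il1rn* encodes the IL-1 receptor antagonist, which occupies the receptor without signalling. It measured 7.78, 7.75 and 7.84 on the rGDF11 arrays and 8.92, 8.86 and 8.86 on the vehicle arrays. The arrays of each group lay close together and far from those of the other, and the fall was 1.09 ± 0.06 (limma adjusted p = 3.06e-05). *Il1r2*, a decoy receptor that captures IL-1, measured 6.20, 6.0 and 6.21 with rGDF11 and 5.34, 5.39 and 5.54 with vehicle. It rose by 0.72 ± 0.09 (adjusted p = 0.00113), and every rGDF11 array was above every vehicle array. *Il1b*, the classical inflammatory IL-1, was dim on all 6 arrays, at 4.69, 5.03 and 4.67 with rGDF11 and 4.38, 4.10 and 4.33 with vehicle. Its rise of 0.53 ± 0.12 (adjusted p = 0.0214) stayed within the olfactory receptor range, and the call was lost without vehicle array 2 (adjusted p = 0.0658) or vehicle array 3 (adjusted p = 0.0627). *Il1a*, the neighbouring agonist, was at 4.13 with rGDF11 and 4.02 with vehicle (adjusted p = 0.406).
The accessory chain *Il1rap*, used by the IL-1, IL-33 and IL-36 receptors, averaged 7.10 ± 0.01 with rGDF11 and 7.13 ± 0.11 with vehicle, and the 95% confidence interval of the difference ran from -0.20 to 0.13. In the IL-36 branch, *Il1f9* (IL-36γ) measured 4.87, 4.93 and 5.21 with rGDF11 and 5.44, 5.66 and 5.49 with vehicle. All rGDF11 arrays lay within the olfactory receptor range and all vehicle arrays lay just above it, with a fall of 0.53 ± 0.11 (limma adjusted p = 0.0128). The receptor chain for IL-36, *Il1rl2*, was at 6.75 ± 0.30 with rGDF11 and 6.31 ± 0.20 with vehicle (SD, n = 3 each), and its difference of 0.44, with a confidence interval from 0.07 to 0.81, did not pass (adjusted p = 0.111).

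The windows 250 bases upstream of the start of *Il18* and *Il1rn* are shown because these were the ligand and the antagonist with the largest falls. They are RefSeq sequences of build GRCm38.p6, 5′ to 3′, and capitals mark a match to the AP-1 motif TGANTCA, which begins 141 bases before the *Il1rn* start.
Il18, chr9:50554450-50554699, plus strand: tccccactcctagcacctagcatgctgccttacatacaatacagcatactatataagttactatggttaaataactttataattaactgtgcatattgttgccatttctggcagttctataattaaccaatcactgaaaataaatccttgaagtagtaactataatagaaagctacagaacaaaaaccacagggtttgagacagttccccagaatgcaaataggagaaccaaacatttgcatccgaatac
Il1rn, chr2:24336610-24336859, plus strand: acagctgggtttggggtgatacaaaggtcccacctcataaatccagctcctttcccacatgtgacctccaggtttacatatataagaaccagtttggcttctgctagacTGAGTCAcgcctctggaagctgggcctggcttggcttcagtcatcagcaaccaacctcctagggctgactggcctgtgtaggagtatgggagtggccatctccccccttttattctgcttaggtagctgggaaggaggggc
The AP-1 motif was present in 6.75% of all 32851 windows of this length. It was found for 14 of the 59 interleukin and receptor genes that had a window, among called genes for *Il16* and *Il1rn*. A gene counted when any of its windows held the motif, so the count of genes and the share of windows are unlike measures. The *Il18* window held none of the 6 motifs searched. No array measured binding at either window, and a match describes the letters only.

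Both chains of the receptor that binds IL-4 and IL-13 rose. *Il13ra1* measured 8.78, 8.86 and 8.57 on the rGDF11 arrays and 7.98, 8.17 and 8.03 on the vehicle arrays. The lowest rGDF11 array was above the highest vehicle array, and the rise was 0.68 ± 0.09 (limma adjusted p = 0.00216), or 1.6-fold. *Il4ra*, the chain shared by IL-4 and IL-13 signalling, measured 9.66, 9.59 and 9.70 with rGDF11 and 9.42, 9.19 and 9.38 with vehicle. The groups did not overlap, but the rise was small, at 0.32 ± 0.08 (adjusted p = 0.0295), and the call was lost in 4 of the 6 fits that left out an array: without rGDF11 array 1 (adjusted p = 0.0953) or 3 (0.0927) and without vehicle array 2 (0.0782) or 3 (0.0653). *Il13ra2*, the decoy for IL-13, lay within the olfactory receptor range at 2.92 with rGDF11 and 2.82 with vehicle (adjusted p = 0.460). The ligands *Il4* and *Il13* were called in neither direction. *Stat6*, through which this receptor signals, fell by 0.45 ± 0.06 (adjusted p = 0.00205).

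The upstream windows of the pair are shown for comparison, from the same RefSeq build.
Il4ra, chr7:125552021-125552270, plus strand: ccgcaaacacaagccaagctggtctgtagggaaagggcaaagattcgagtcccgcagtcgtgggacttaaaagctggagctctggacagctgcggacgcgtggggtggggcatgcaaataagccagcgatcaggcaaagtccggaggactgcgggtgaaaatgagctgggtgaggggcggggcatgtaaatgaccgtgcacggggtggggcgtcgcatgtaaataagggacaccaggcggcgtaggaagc
Il13ra1, chrX:36111858-36112107, plus strand: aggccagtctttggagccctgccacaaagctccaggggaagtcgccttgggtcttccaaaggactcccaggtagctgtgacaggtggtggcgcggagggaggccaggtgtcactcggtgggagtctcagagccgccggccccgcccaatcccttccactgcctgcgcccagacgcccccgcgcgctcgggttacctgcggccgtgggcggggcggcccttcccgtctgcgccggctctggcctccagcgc
Neither window held any of the 6 motifs, and their shares of G and C were 59.6% for *Il4ra* and 70.8% for *Il13ra1*, beside 35.6% for *Il18* and 53.2% for *Il1rn*. *Il21r*, the receptor of IL-21, is the next protein-coding gene to *Il4ra* on chromosome 7, and it rose as well. Its values were 8.06, 7.96 and 8.37 with rGDF11 and 7.38, 7.22 and 7.15 with vehicle. All rGDF11 arrays were higher, by 0.88 ± 0.11 on average (adjusted p = 0.00157).

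*Il21r* pairs with the common gamma chain, as *Il4ra* also can, and both rose. Among the other ligands and receptor chains that use this chain, the ligand *Il15* and the receptor chain *Il7r* fell. *Il15* encodes a cytokine that macrophages present to lymphocytes on its own receptor chain. It measured 6.92, 6.79 and 6.27 on the rGDF11 arrays and 7.80, 8.04 and 7.92 on the vehicle arrays. The third rGDF11 array was the lowest, all 3 were below the vehicle arrays, and the fall was 1.26 ± 0.16 (limma adjusted p = 0.00147), or 2.40-fold. The presenting chain *Il15ra* averaged 6.42 ± 0.19 with rGDF11 and 6.61 ± 0.04 with vehicle, and its difference of -0.19 did not pass (confidence interval from -0.41 to 0.04, adjusted p = 0.268). *Il7r*, a chain of the IL-7 receptor, was among the brightest of the 76 genes. It measured 10.74, 10.70 and 10.62 with rGDF11 and 11.06, 10.95 and 10.90 with vehicle. The groups did not overlap, and the difference of -0.28 ± 0.07 passed with all 6 arrays (adjusted p = 0.0298) but in none of the 6 fits that left out an array, where the adjusted p lay between 0.0507 and 0.0933. The ligands *Il2*, *Il7*, *Il9* and *Il21* and the receptor chains *Il2ra*, *Il2rb* and *Il9r* all lay within the olfactory receptor range and were not called.

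Both chains of the IL-10 receptor fell. *Il10ra*, which binds the ligand, measured 8.91, 8.83 and 8.62 on the rGDF11 arrays and 9.35, 9.29 and 9.39 on the vehicle arrays. Every rGDF11 array was lower, by 0.56 ± 0.09 on average (limma adjusted p = 0.00366). *Il10rb*, a chain shared with the receptors of IL-22 and of the lambda interferons, measured 10.75, 10.76 and 10.73 with rGDF11 and 11.07, 11.08 and 11.05 with vehicle. Its replicates were nearly identical, and the fall was 0.32 ± 0.06 (adjusted p = 0.00698). *Ifnlr1*, the partner of *Il10rb* in the lambda interferon receptor, moved the other way, with a rise of 1.54 ± 0.12 (adjusted p = 0.000137). *Il10* itself lay within the olfactory receptor range at 3.80 with rGDF11 and 3.87 with vehicle. Of the chains for the IL-20 group, *Il20rb* was bright enough to read, at 6.57 ± 0.18 with rGDF11 and 6.51 ± 0.20 with vehicle (confidence interval of the difference from -0.23 to 0.35).

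In the IL-6 and IL-12 families, 2 of 14 genes were called, a share of 14.3% beside 16.0% of all tested probe sets, and 7 of the 14 lay within the olfactory receptor range. The called genes were the receptor chains *Il12rb2* and *Il6st*, and both fell. *Il12rb2*, the signalling chain of the IL-12 receptor, measured 7.50, 7.43 and 7.36 on the rGDF11 arrays and 8.29, 8.53 and 8.46 on the vehicle arrays. The gap between the groups was wider than the spread of either, and the fall was 1.0 ± 0.08 (limma adjusted p = 0.000151). Its partner *Il12rb1* averaged 6.26 ± 0.19 with rGDF11 and 6.07 ± 0.22 with vehicle (adjusted p = 0.411), and *Stat4*, which IL-12 activates, fell by 1.75 ± 0.13 (adjusted p = 9.03e-05). *Il6st*, also known as gp130 and shared by most receptors of the IL-6 family, measured 9.67, 9.64 and 9.53 with rGDF11 and 10.08, 10.19 and 10.16 with vehicle. All rGDF11 arrays were lower, by 0.53 ± 0.07 on average (adjusted p = 0.0015). The private chain *Il6ra* was at 9.06 ± 0.08 with rGDF11 and 9.10 ± 0.17 with vehicle, and a confidence interval from -0.26 to 0.18 bounded its difference. *Il27ra*, which pairs with gp130, averaged 5.73 ± 0.05 with rGDF11 and 5.94 ± 0.07 with vehicle and did not pass (adjusted p = 0.0740). *Lifr*, the gp130 partner for leukaemia inhibitory factor, fell by 1.26 ± 0.15 (adjusted p = 0.00111), and *Ebi3*, a subunit of IL-27, fell by 0.83 ± 0.06 (adjusted p = 0.000109). *Il6* was the dimmest of all 76 genes, at 2.61 with rGDF11 and 2.70 with vehicle.

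The largest rise among the 76 genes was that of *Il17ra*, the chain shared by the receptors of the IL-17 family. It measured 8.58, 8.65 and 8.67 on the rGDF11 arrays and 7.41, 7.28 and 7.43 on the vehicle arrays. The groups lay far apart, and the rise was 1.26 ± 0.07 (limma adjusted p = 2.74e-05), or 2.40-fold. None of the other 10 genes of the family was called, beside 16.0% of all tested probe sets, and 5 of the family lay within the olfactory receptor range. The chains that pair with *Il17ra*, namely *Il17rb*, *Il17rc* and *Il17re*, had differences between -0.13 and 0.13. Of these, *Il17rb* and *Il17re* lay within the olfactory receptor range, and *Il17rc*, with a mean of 6.08, lay below the median. A small change in the dim chains could not be told apart from none.

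Outside these families, *Il16*, a cytokine that attracts cells bearing CD4, measured 5.73, 5.94 and 5.69 on the rGDF11 arrays and 6.42, 6.50 and 6.59 on the vehicle arrays. Every rGDF11 array was lower, by 0.72 ± 0.09 on average (limma adjusted p = 0.00107). *Il3ra*, which joins the common beta chain to form the IL-3 receptor, was at 7.66 ± 0.09 with rGDF11 and 7.63 ± 0.11 with vehicle (confidence interval of the difference from -0.16 to 0.21). The common beta chain *Csf2rb* rose by 0.72 ± 0.06 (adjusted p = 0.000243) and its near-identical copy *Csf2rb2* by 0.78 ± 0.08 (adjusted p = 0.000373), and the probes may not separate these genes. *Il34*, the second ligand of the M-CSF receptor, averaged 5.24 with rGDF11 and 5.34 with vehicle, within the olfactory receptor range (adjusted p = 0.486).

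**Figure D2:**
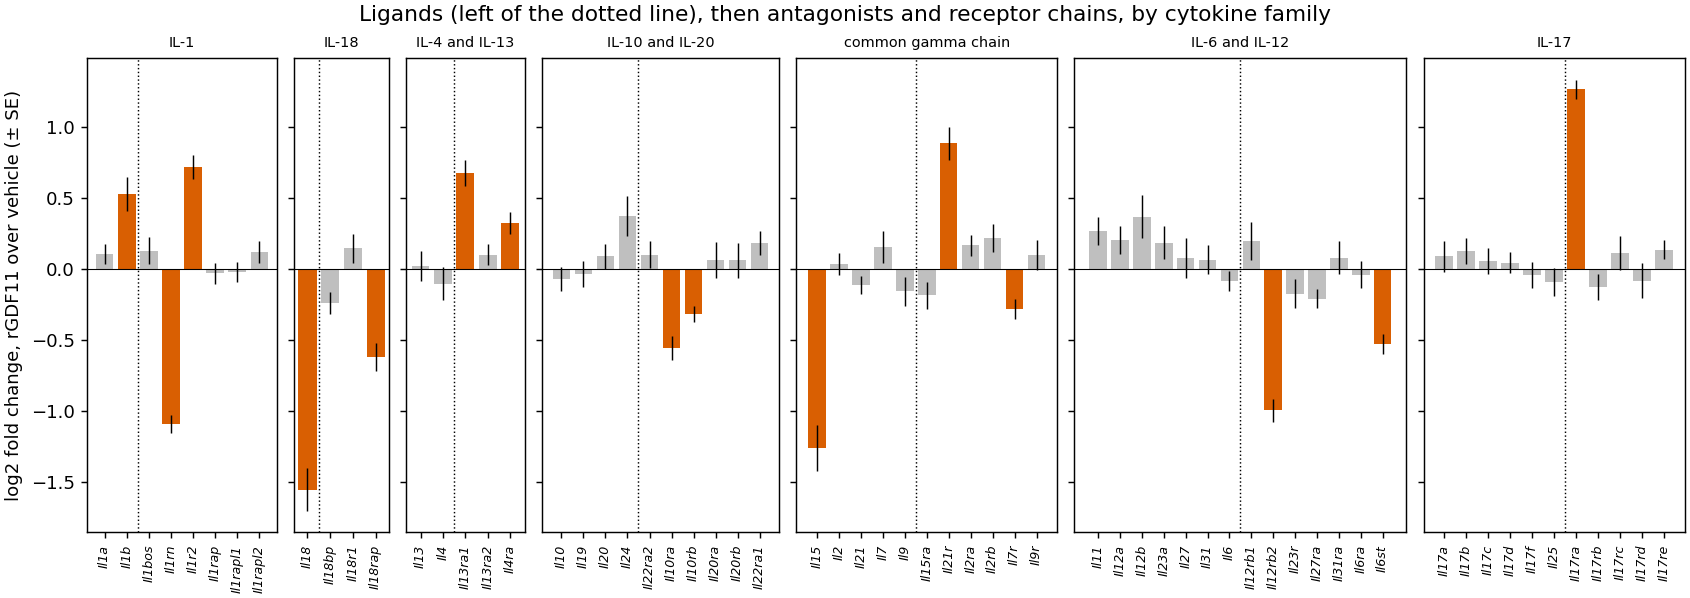
Log2 fold change of rGDF11 over vehicle (bars, with SE from limma) for the genes of 7 cytokine families. Ligands stand left of the dotted line in each panel, with *Il1bos*, antagonists and receptor chains right of it, and orange marks an adjusted p under 0.05; both IL-10 receptor chains fell, *Il4ra* and *Il13ra1* rose, and in the IL-17 panel *Il17ra* alone is orange.

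Set side by side by role, 5 of the 36 ligands were called, 1 higher and 4 lower, and 11 of the 35 receptor chains, 5 higher and 6 lower, beside 16.0% of all tested probe sets. The difference between these shares was not tested. The median log2 fold change was 0.03 for ligands and 0.08 for receptor chains, beside 0.02 for all tested probe sets. The groups also differed in brightness. Only 2 ligands, *Il15* and *Il18*, had a mean above the median of all tested probe sets, 6.15, and both fell. Of the receptor chains, 16 had a mean above it, of which 4 rose and 5 fell. Of all genes above the median, 12.5% rose and 16.2% fell. The median level was 4.79 for ligands and 5.97 for receptor chains. Since brightness also depends on the probes, levels were used only to sort genes and not to rank transcripts.

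**Figure D3:**
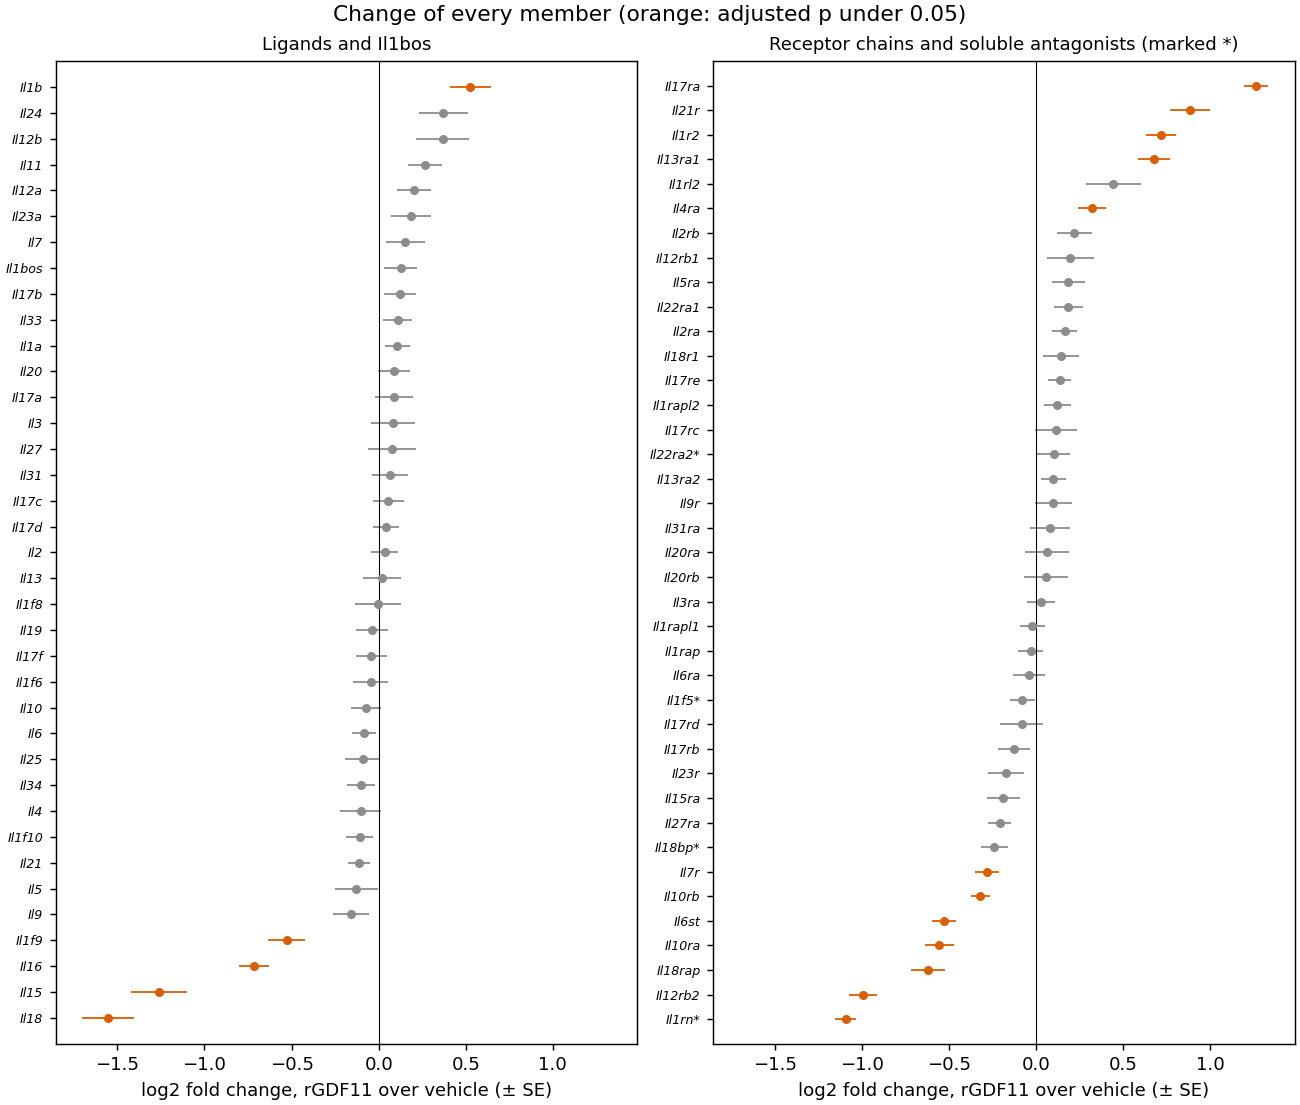
Log2 fold change of rGDF11 over vehicle (points, with SE from limma as lines) for all 76 genes, with ligands and *Il1bos* in the left panel and receptor chains and soluble antagonists (asterisk) in the right. Orange marks an adjusted p under 0.05: 5 ligands, 11 receptor chains and 1 antagonist, while the other points cluster around 0.

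Calls were more frequent among the brighter genes. Above the median, 12 of 20 genes were called, beside 28.7% of all genes at that level. Between the olfactory receptor range and the median, 3 of 13 were called, beside 9.23% of all genes at that level. Within the olfactory receptor range, 2 of 43 were called, *Il1b* and *Il1f9*, beside 2.97% of all genes there. For the 41 uncalled dim genes, which included *Il6*, *Il10*, *Il1a* and *Il34*, a small change could not be told apart from none at this signal. The 8 bright genes that were not called were *Il6ra*, *Il3ra*, *Il1rap*, *Il18bp*, *Il20rb*, *Il1rl2*, *Il15ra* and *Il12rb1*, all described above.

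**Figure D4:**
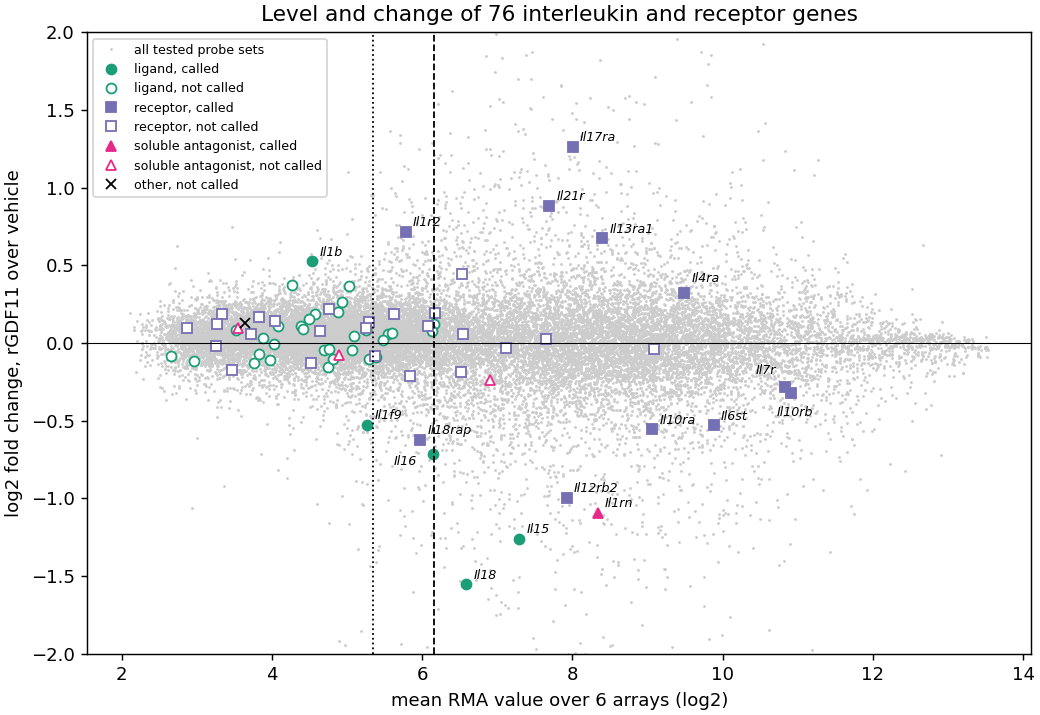
Log2 fold change of rGDF11 over vehicle against the mean RMA value over the 6 arrays (log2) for all tested probe sets (grey) and for the 76 genes by role, with filled symbols for genes called at an adjusted p under 0.05. The dotted line marks the olfactory receptor range (5.34) and the dashed line the median (6.15); the vertical axis stops at -2 and 2, so grey points beyond are not drawn, and most ligands lie left of the dotted line.

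The downstream partners of these receptors were examined as 5 lists with 54 measured genes, of which 6 rose and 17 fell, beside 7.31% and 8.64% of all tested probe sets. Most partners were bright, 45 of 54 lying above the median, and of all genes at that level 12.5% rose and 16.2% fell. In the list of receptor kinases and STATs, the factors that carry the signal to the nucleus, 6 of 9 fell and 0 rose, beside 16.2% lower and 12.5% higher among all genes above the median, where all 9 lay, with a list median of -0.32 beside 0.02 for all tested probe sets. *Stat2*, used by interferon receptors, had the largest fall, with values of 8.10, 7.90 and 8.06 on the rGDF11 arrays and 9.89, 9.77 and 9.85 on the vehicle arrays. These groups did not overlap and differed by -1.81 ± 0.08 (limma adjusted p = 1.12e-05). *Stat3*, *Stat5b* and *Tyk2* also fell, by 0.32, 0.42 and 0.32, while *Jak1* (-0.18) and *Jak2* (0.21) did not pass. Among 9 genes that process IL-1 and IL-18, 8 of them above the median, 3 fell and 0 rose, beside the same 16.2% and 12.5%. *Casp1*, the protease that cleaves both precursors, measured 7.07, 7.40 and 7.01 with rGDF11 and 8.16, 8.21 and 8.08 with vehicle. It fell by 0.99 ± 0.11 (adjusted p = 0.000649), without overlap, and *Casp4* fell by 1.18 ± 0.11 (adjusted p = 0.000263). Of the 9 adaptors of the IL-1 and IL-18 receptors, 2 fell, *Myd88* by 0.46 and *Mapkapk2* by 0.56, and *Map3k7* rose by 0.23. These counts stand beside 16.2% lower and 12.5% higher among all genes above the median, where all 9 lay. Of 11 feedback inhibitors, 2 rose and 3 fell. *Socs2*, 1 of the 2 that rose, and *Cish*, uncalled, lay between the olfactory receptor range and the median. In that band 9.23% of all genes were called in either direction. The others lay above the median, where 12.5% of all genes rose and 16.2% fell. *Irak3*, which blocks IL-1 signalling, fell by 0.68 ± 0.08 (adjusted p = 0.000749), and *Socs3*, an inhibitor of gp130 signalling, rose by 0.57 ± 0.10 (adjusted p = 0.00689). Of the 16 shared or related chains and cytokines, 3 rose and 3 fell, beside 7.31% and 8.64% of all tested probe sets, and 4 lay within the olfactory receptor range.

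Counts in the marker lists stand beside 7.31% higher and 8.64% lower among all tested probe sets. Among all genes above the median, 12.5% rose and 16.2% fell. The neutrophil list, 8 genes of which *Ngp* and *S100a8* rose, averaged 6.55 to 6.64 on the rGDF11 arrays and 6.29 to 6.32 on the vehicle arrays. Among its uncalled genes, *S100a9*, *Elane*, *Camp* and *Ltf* differed by 0.18 to 0.26, *Mpo* by -0.10 and *Ly6g* by -0.22. The decoy receptor *Il1r2* is also known from neutrophils. The 7 stromal markers, of which *Col1a1*, *Col1a2* and *Pdgfrb* rose, averaged 5.74 to 5.82 with rGDF11 and 5.48 to 5.64 with vehicle. Of the uncalled stromal markers, *Lepr* and *Cxcl12* differed by 0.20 and 0.21, and *Pdgfra* and *Dcn* by -0.15 and -0.26. The 6 dendritic cell markers, of which *Flt3* rose, averaged 5.22 to 5.48 with rGDF11 and 4.97 to 5.11 with vehicle, with a list median of 0.29, and 3 of them lay within the olfactory receptor range. *Gata2* of the mast cell list rose by 0.44 and *Alas2* of the erythroid list by 0.23. Of 7 T cell markers 5 lay within the olfactory receptor range, *Lat* rose and *Cd4* fell, and the list averaged 5.14 to 5.24 with rGDF11 and 4.97 to 5.23 with vehicle. All 5 natural killer markers lay in that range and none was called, and of 5 B cell markers *Cd79b* fell. The part of such cells in the changes of *Il1r2*, *Il7r*, *Il12rb2* and *Il18rap* was not tested.

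Motifs were counted on both strands of the 250 bases upstream of each start, for the 59 of the 76 genes with a RefSeq window. A gene counted when any of its windows held the motif, whereas the percentages are shares of single windows. The counts and the percentages are therefore unlike measures and do not show an excess or a lack. The Smad box CAGACA occurred in 13 of the 59, beside 17.1% of all windows, and among the 13 called genes with a window in those of *Il16*, *Il1f9* and *Il21r*. The STAT motif TTCNNNGAA occurred in 9, beside 7.02%, and among called genes in *Il12rb2*, *Il1f9*, *Il1r2* and *Il7r*. The interferon motif GAAANNGAA, whose letters can overlap the STAT motif, occurred in 3, beside 7.13%, and in no called gene. The Smad repeat GTCTAGAC and the NF-κB motif GGGANTTCC occurred in none of the 59, beside 0.167% and 1.43%. These counts describe short letter patterns and were not tested against the calls.

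Of 23 pairs of neighbouring interleukin or receptor genes, 1 had both genes called and 9 had 1 called, where 17 of the 76 genes and 16.0% of all tested probe sets were called. The pairs overlap, so that *Il1b* and *Il1f9* each count in more than 1. Pairs of other genes were not counted. The pair with both called was *Il4ra* and *Il21r*, which rose and have no protein-coding gene between them, with the call of *Il4ra* lost in 4 of the 6 fits that left out an array. In the chromosome 1 cluster *Il1r2* rose and *Il18rap* fell, and *Il1rl2* and *Il18r1*, which lie between them, were not called. A further protein-coding gene, not among the genes examined, lies between *Il1r2* and *Il1rl2*, and another between *Il1rl2* and *Il18r1*. In the chromosome 2 cluster *Il1f9* and *Il1rn* fell, while *Il1f6*, *Il1f5* and *Il1f10*, which lie between them, and *Il1f8* were not called. *Il12rb2* fell and the adjacent *Il23r*, within the olfactory receptor range, did not pass.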

How the data were processed

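Total RNA was hybridized to Affymetrix Mouse Gene 1.0 ST arrays. The authors deposited log2 values made with RMA, and the submitters' processing notes name Transcriptome Analysis Console 3.0; which arrays were hybridized together was not given in the sources used here. Of 35556 probe sets, 21789 had 1 symbol, 1621 several and 12146 none. The platform annotation gave the symbols, which were checked against RefSeq (GRCm38.p6), where all 76 genes were found. The 23410 probe sets with a symbol were fitted in limma 3.58.1 (R 4.3.3) by lmFit, then eBayes with no trend, in two-sided tests. P-values were adjusted by Benjamini and Hochberg's method over all 23410, and a gene was called when the adjusted value was under 0.05. The spread borrowed 3.67 prior degrees of freedom in addition to 4 from the arrays, and the number of arrays limits the precision. Confidence intervals are 95%. The fit was tested on simulated data. The text names every called gene, the brightest genes, partners of a shared chain, and called partner genes past a fold change of 1.5 with a few others. The dimness yardstick used 1027 olfactory receptor genes. The genes, the lists and the rule for naming were chosen with earlier results of these data known. Alternatives were the probe sets entered, a filter on dim ones, the scaling, the variance trend, the methods' t-test, a replicate block, leaving out each array, and the thresholds.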

Additional observations from a re-analysis of the deposited data

How the results depend on the processing

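Of the 17 called genes, 10 kept their call in every setting that gave them a value and 0 changed sign. *Il16*, *Il18rap*, *Il1b*, *Il1f9* and *Il1r2* lay below the median and had none under that filter. *Il10ra*, *Il10rb* and *Il6st* lost theirs only at the methods' threshold, which needs a fold change of 1.5. *Il1b*, *Il4ra*, *Il7r* and *Il1f9* lost theirs there, at an adjusted p under 0.01 and under the methods' t-test with Benjamini-Hochberg adjustment. *Il1b*, *Il4ra* and *Il7r* lost theirs also when all rows of the table entered and when arrays were left out (2, 4 and 6 of the 6 fits), and *Il7r* after a second quantile normalization (adjusted p = 0.0659). At the methods' threshold, with limma or the t-test alike, 10 genes were called (6 lower), of them 3 ligands and 6 receptor chains, and 10 partner genes. Ligands called were also 3 under the t-test with Benjamini-Hochberg adjustment and at an adjusted p under 0.01. With only rows above the median, 2 ligands were called, since only 2 remained, and their median was -1.41.

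Leaving out each array in turn gave 14 to 17 called genes, 4 to 7 higher and 10 lower, 4 to 6 ligands, 9 to 10 receptor chains and 19 to 20 partner genes, with medians of -0.02 to 0.05 for ligands and 0.04 to 0.13 for receptor chains. Among uncalled genes, the sign turned for *Il20rb* without rGDF11 array 1 or vehicle array 2 (range -0.0573 to 0.153), *Il3ra* without rGDF11 array 3 or vehicle array 2 (-0.0225 to 0.0863), *Il1rap* without vehicle array 2 (-0.0770 to 0.0281) and *Il6ra* without vehicle array 3 (-0.0926 to 0.0539). *Il18bp* passed among rows above the median (adjusted p = 0.0241), *Il1rl2* there (0.0498), with a variance trend (0.0398), under the block (0.0332) and without rGDF11 array 3 (0.0272), and *Il27ra* after the second quantile normalization (0.0274).

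Arrays with the same replicate number deviated together with correlations of 0.06, 0.33 and -0.0008 between rGDF11 and vehicle, so the numbers were not taken to pair the samples. With the replicate number as a block, 18 genes were called, 7 higher and 11 lower, with 5 ligands, 12 receptor chains and 22 partner genes, and the call of *Il1b* was lost (adjusted p = 0.0548). Depth does not exist for arrays; signal near the olfactory receptor range limits what can be read for 43 of the 76 genes.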

Other observations

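Some interleukin genes share a probe set with a second symbol and were left out by the rule. The pair of probe sets for *Iltifb* and *Il22* averaged 4.67 and 4.48 with rGDF11 and 4.63 and 4.42 with vehicle, and the probe set for *Il4i1b* and *Il4i1* averaged 5.22 with rGDF11 and 5.13 with vehicle. All 3 lay within the olfactory receptor range and were not called.

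Further probe sets of the same genes added no call. *Il20rb* had 2 more, with differences of -0.01 and -0.02, *Il17rd* had 1 at 0.08 and *Il22ra1* had 1 at 0.11.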
